A study of Mus musculus with 12 samples.

Results

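Ngfr, Cntfr, Bdnf and Hgf, 2 receptors and 2 ligands of neurotrophic signalling, were followed across 4 groups of mouse trigeminal ganglia. They are a fixed list of 4 genes among 9968 that could be named by position. The naming rule uses no measured value, but the list was chosen with earlier results of these data known. Both receptors stood higher than in controls after corneal injury, after electrical stimulation, and after the 2 together. For Ngfr the call after injury was lost in 4 of 12 fits without 1 library, and the calls after injury and after both were lost when the trend with base composition was removed. Hgf stood lower than in controls after injury alone and after stimulation alone, and its call after stimulation alone was lost with that trend removed. With both treatments Hgf was not called against control, though all 3 libraries lay below the controls, nor against either single treatment by edgeR. Its values rest on 17 to 97 reads per library. Bdnf was lower than in controls after injury alone, and that call was lost in many of the alternative fits.

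Ngfr encodes p75, the low-affinity receptor that all neurotrophins and their uncleaved precursors share, present on sensory neurons and prominent on glial cells of peripheral nerve. Cntfr encodes the ligand-binding alpha subunit of the ciliary neurotrophic factor receptor, which signals through gp130 (Il6st) and the leukaemia inhibitory factor receptor to JAK and STAT proteins. Bdnf encodes brain-derived neurotrophic factor, a neurotrophin made by part of the sensory neurons, which acts on TrkB (Ntrk2) and on p75. Hgf encodes hepatocyte growth factor, made mainly by mesenchymal cells, whose only known signalling receptor is the tyrosine kinase Met.

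Bulk RNA sequencing covered 12 libraries of trigeminal ganglion, the sensory ganglion that supplies the cornea, from female C57BL/6J mice 8 weeks old, with 3 libraries in each group. Control mice were untreated. Injured mice were studied 2 weeks after a keratectomy, in which the epithelium and outer stroma inside a circle of 1.5 mm were removed from 1 eye chosen at random. Stimulated mice, with or without that wound, received a biphasic current of 300 µA at 20 Hz through the skin over the orbit for 4 minutes each day over 14 days. All 4 groups share strain, sex and age, and no label gives a genetic change or diabetes, although the title of the series names diabetic neuropathy. Isoflurane was given for stimulation, and ketamine, xylazine and an analgesic for the wound, so their effects cannot be told apart from those of the groups. Sham stimulation is described, but no library analysed here bears that label. The labels do not give the number of mice or the side of the ganglion behind a library, so a p-value here speaks only of the variation from library to library, which may be technical.

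Cntfr was read through its own interval on chromosome 4, from 41657498 to 41697089 on the minus strand (GRCm38), which covered 100% of its 2782 exon bases. The other 3 genes were read through intervals that carry a neighbour's name in the deposited counts, because the counting intervals follow GRCm39 gene models while the reads lie on exons in GRCm38 coordinates. Ngfr lies on chromosome 11 from 95568818 to 95587735 on the minus strand, and its reads fell in the interval deposited as Phb, which held 672 of its 3446 exon bases (19.5%). Bdnf lies on chromosome 2 from 109674700 to 109727007 on the plus strand, and its reads fell in the interval deposited as Lin7c, which held 618 of its exon bases (9.94%), none of them coding. Hgf lies on chromosome 5 from 16553495 to 16620152 on the plus strand, and its reads fell in the interval deposited as Cacna2d1, which held 497 of its exon bases (6.92%). A value for these 3 genes is therefore the level of a stretch of the transcript and not of the whole. Pathway genes and cell type markers named below were also read through 1 interval each. The exon bases counted were, for example, 112 for Psen2, 158 for Maged1, 209 for Stat3, 134 for the marker Uchl1 and 7657 for Met. The same limit holds for them wherever the interval covers only part of the transcript.

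Most of the interval that carried Hgf was not Hgf exon. Of its 12416 bases, 5086 were Hgf intron, 1587 were Cacna2d1 intron and 5246 lay outside genes. At the median read density of intervals inside gene bodies that cover no exon, those bases would give 0.390 CPM (counts per 1000000 reads after TMM scaling, which adjusts library totals for composition). At the lower edge of the densest 10% of such intervals they would give 3.20 CPM, as much as the mean of Hgf in 2 of the groups. At the 95th percentile of density they would give 6.26 CPM. The 6 exon-free intervals inside Cacna2d1 itself, of 244 to 3343 bases, had a mean of 0 to 0.0321 CPM each. At the median and at the lower edge of the densest 10%, the same sums gave 0.128 and 1.05 CPM for Bdnf and 0.0698 and 0.573 CPM for Ngfr, both below the levels measured for those genes. Unstranded counting also includes any reads from the opposite strand.

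The coding bases through which Ngfr and Hgf were read are shown because the deposited counts list them under other genes' names. The Ngfr stretch, chr11:95570806-95571095 (GRCm38, minus strand), is the coding part of exon 6 of 6, runs to the base before the stop codon and has 63.4% G and C. It encodes the end of the cytoplasmic tail of p75, the part that holds the death domain. The Hgf stretches on the plus strand are exon 5 of 19 (chr5:16566747-16566861, 44.3% G and C), exon 7 (chr5:16576909-16577029, 52.1%) and exon 8 (chr5:16578443-16578561, 49.6%). All are printed 5′ to 3′ on the strand of the gene.
Ngfr exon 6 coding part: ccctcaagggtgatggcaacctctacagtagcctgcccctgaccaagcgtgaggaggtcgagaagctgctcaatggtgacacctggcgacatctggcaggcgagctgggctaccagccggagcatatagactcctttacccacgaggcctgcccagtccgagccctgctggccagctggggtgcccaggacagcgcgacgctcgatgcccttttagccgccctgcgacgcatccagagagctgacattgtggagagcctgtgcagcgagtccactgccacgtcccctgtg
Hgf exon 5: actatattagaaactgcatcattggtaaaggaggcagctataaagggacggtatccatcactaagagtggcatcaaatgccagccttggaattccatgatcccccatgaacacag
Hgf exon 7: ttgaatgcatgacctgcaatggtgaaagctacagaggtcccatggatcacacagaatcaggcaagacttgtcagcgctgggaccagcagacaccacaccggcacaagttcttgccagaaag
Hgf exon 8: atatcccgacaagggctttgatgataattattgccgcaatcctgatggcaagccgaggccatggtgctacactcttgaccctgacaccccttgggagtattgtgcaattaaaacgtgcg

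Promoter windows of the 4 genes, from 250 bases before to 50 bases after the annotated start (RefSeq, GRCm38.p6), are shown because both receptors rose where Hgf fell, after injury alone and with stimulation alone. After injury with stimulation the receptors rose and Hgf was not called. Capitals mark GC boxes, the letters GGGCGG on either strand, which 35.7% of 32851 such windows hold. The Ngfr window (chr11:95587649-95587948, minus strand) held 4 and had 71.7% G and C, and the Cntfr window (chr4:41695404-41695703, minus strand, 1 of 6 listed starts) held 1 and had 78.7%. The first listed Bdnf start (chr2:109674450-109674749, plus strand, 1 of 7) and the first Hgf start (chr5:16553245-16553544, plus strand, 1 of 2) held none and had 57.3% and 51.3%, against a median of 52.7% over all windows. The STAT motif TTCNNNGAA, present in 8.30% of windows, was found once, in the Bdnf window. The AP-1 motif TGANTCA (7.81% of windows) and the CRE motif TGACGTCA (1.79%) were found in none of the 4. These are matches of letters on both strands, with no overlap between the motifs counted, and they do not show that a factor binds there.
Ngfr promoter: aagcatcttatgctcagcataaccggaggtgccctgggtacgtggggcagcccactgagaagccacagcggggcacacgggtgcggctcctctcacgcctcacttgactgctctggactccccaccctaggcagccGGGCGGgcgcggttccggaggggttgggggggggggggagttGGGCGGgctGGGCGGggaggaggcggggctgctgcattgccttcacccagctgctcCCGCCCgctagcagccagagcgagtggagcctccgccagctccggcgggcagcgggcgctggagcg
Cntfr promoter: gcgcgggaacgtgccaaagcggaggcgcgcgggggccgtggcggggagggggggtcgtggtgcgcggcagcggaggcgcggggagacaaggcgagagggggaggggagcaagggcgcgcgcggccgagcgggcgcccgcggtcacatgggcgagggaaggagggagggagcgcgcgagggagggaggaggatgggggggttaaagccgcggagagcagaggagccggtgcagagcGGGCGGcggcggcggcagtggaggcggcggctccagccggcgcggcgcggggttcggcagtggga
Bdnf promoter: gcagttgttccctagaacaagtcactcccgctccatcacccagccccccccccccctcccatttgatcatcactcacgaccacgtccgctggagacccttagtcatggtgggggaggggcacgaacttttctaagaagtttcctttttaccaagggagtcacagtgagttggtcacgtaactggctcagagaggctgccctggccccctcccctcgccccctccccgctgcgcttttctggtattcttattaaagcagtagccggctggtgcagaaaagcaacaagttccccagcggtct
Hgf promoter: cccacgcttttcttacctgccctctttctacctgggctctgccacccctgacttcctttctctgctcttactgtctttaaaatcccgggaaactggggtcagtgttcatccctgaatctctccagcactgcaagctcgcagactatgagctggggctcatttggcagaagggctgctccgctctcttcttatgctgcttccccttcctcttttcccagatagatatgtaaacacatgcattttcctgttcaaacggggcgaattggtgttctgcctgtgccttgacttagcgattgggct

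The libraries held 7952798 to 10751547 counted reads, and the biological coefficient of variation was 23.5%. Of 18 sensory neuron markers 9 could be named, none of them at 0. Their summed level was 5530 to 6329 CPM in controls, 8072 to 9640 in injured mice, 6917 to 12322 in mice with both treatments and 9094 to 10913 in mice with stimulation alone. Against control, 3 of the 9 were called higher and 1 lower after injury, 5 and 1 with stimulation alone, and 4 and 0 with both. In the same group order, 6 Schwann cell markers summed to 3185 to 4156, 6710 to 8513, 3414 to 6524 and 5005 to 5366 CPM, with 5, 1 and 4 of them called higher in the treated groups and 0 lower. The 9 markers of fibroblasts and meninges summed to 9257 to 10103, 27484 to 27848, 8353 to 10083 and 4723 to 9223 CPM. Most of the sum after injury was Ptgds, at 21985 ± 404 CPM (SD, n = 3) against 5226 ± 258 in controls.

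Other cell types moved as well. The 4 satellite glia markers summed to between 309 and 523 CPM over all libraries, but single members went opposite ways. Kcnj10, a potassium channel of these cells, rose from 68.9 ± 20.9 to 215 ± 47.0 CPM after injury, and the cadherin Cdh19 fell from 55.0 ± 1.76 to 25.3 ± 0.934 (SD, n = 3; edgeR adjusted p = 0.0019 and 0.0030). After injury 1 of the 4 was called higher and 2 lower, with stimulation alone 1 and 3 (median log2 fold change −0.85), and with both 0 and 2. All 4 oligodendrocyte markers were called higher after injury (median 1.88) and lower when stimulation was added to injury, with sums of 195 to 321, 588 to 1069, 146 to 333 and 253 to 460 CPM in the order of groups above. The 7 macrophage markers summed to 121 to 140, 189 to 224, 99.2 to 115 and 74.9 to 98.5 CPM. Fewer cells of a type and less RNA per cell cannot be told apart in these bulk samples.

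Of the 4 genes, all were called after injury against control (edgeR's quasi-likelihood test, adjusted p under 0.05), where 31.0% of 13053 intervals tested were called. The receptors were the 2 called higher (19.3% of intervals) and the ligands the 2 called lower (11.7%). With stimulation alone against control 3 were called (29.8% of intervals), both receptors higher (18.2%) and Hgf lower (11.7%). After injury with stimulation against control the 2 receptors were called (17.2% of intervals), both higher (12.3%). None was called lower there (4.93% of intervals), by edgeR or DESeq2 or at an unadjusted p under 0.05. Without replicate 3 of injury with stimulation, that comparison called 0 of the 4 genes and 11 intervals. The 3 comparisons share the control libraries. Since the 4 genes were chosen with earlier results of these data known, their counts are no test against the shares of all intervals. The share of all intervals whose libraries do not overlap between groups is not given here. Statements that libraries of a gene lay above or below those of another group therefore only describe the values.

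Between treated groups fewer were called. Injury with stimulation against injury called 0 of the 4 by edgeR (1.54% of intervals) and 0 by DESeq2, with 1, Hgf, at an unadjusted p under 0.05. Injury with stimulation against stimulation alone called 0 by edgeR (4.07% of intervals), with 2, Ngfr and Hgf, at an unadjusted p under 0.05 and the same 2 called by DESeq2. Injury against stimulation alone, a comparison added after the data were seen, called 1, Ngfr, which was lower (14.4% of intervals in either direction). The interaction, which is the effect of stimulation in injured mice minus its effect in uninjured mice, called 3 (19.2% of intervals), with Hgf higher (6.86%) and both receptors lower (12.3%). Plots of the level in each library and of the fitted differences show these patterns.

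**Figure D1:**
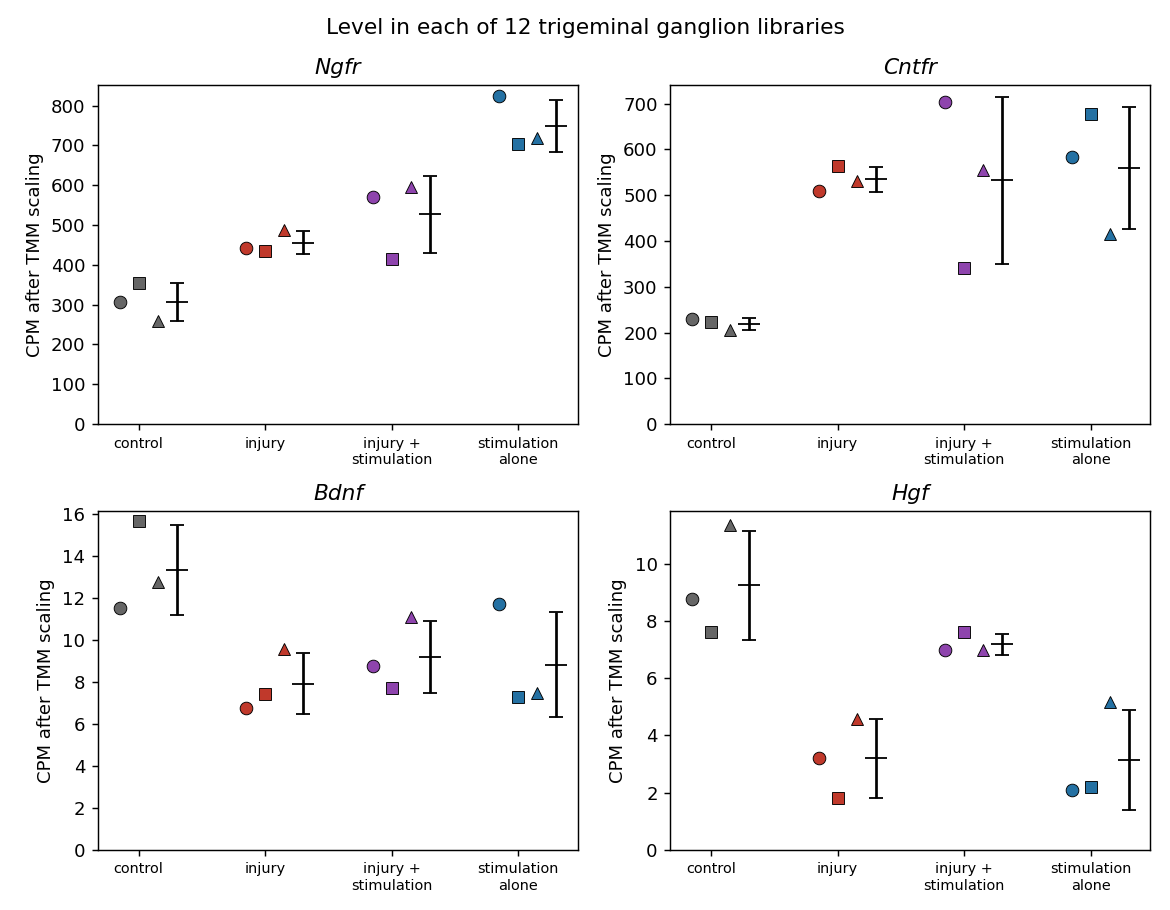
Level of Ngfr, Cntfr, Bdnf and Hgf in each of the 12 libraries, in CPM after TMM scaling on the vertical axes, by group on the horizontal axes. Each point is 1 library (circle, square and triangle for replicates 1, 2 and 3) and bars are mean ± SD of 3. Ngfr and Cntfr lie above all control libraries in every treated group, and Hgf lies at 1.81 to 5.17 CPM in the injury and stimulation alone groups against 6.97 to 11.4 in the other two.

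**Figure D2:**
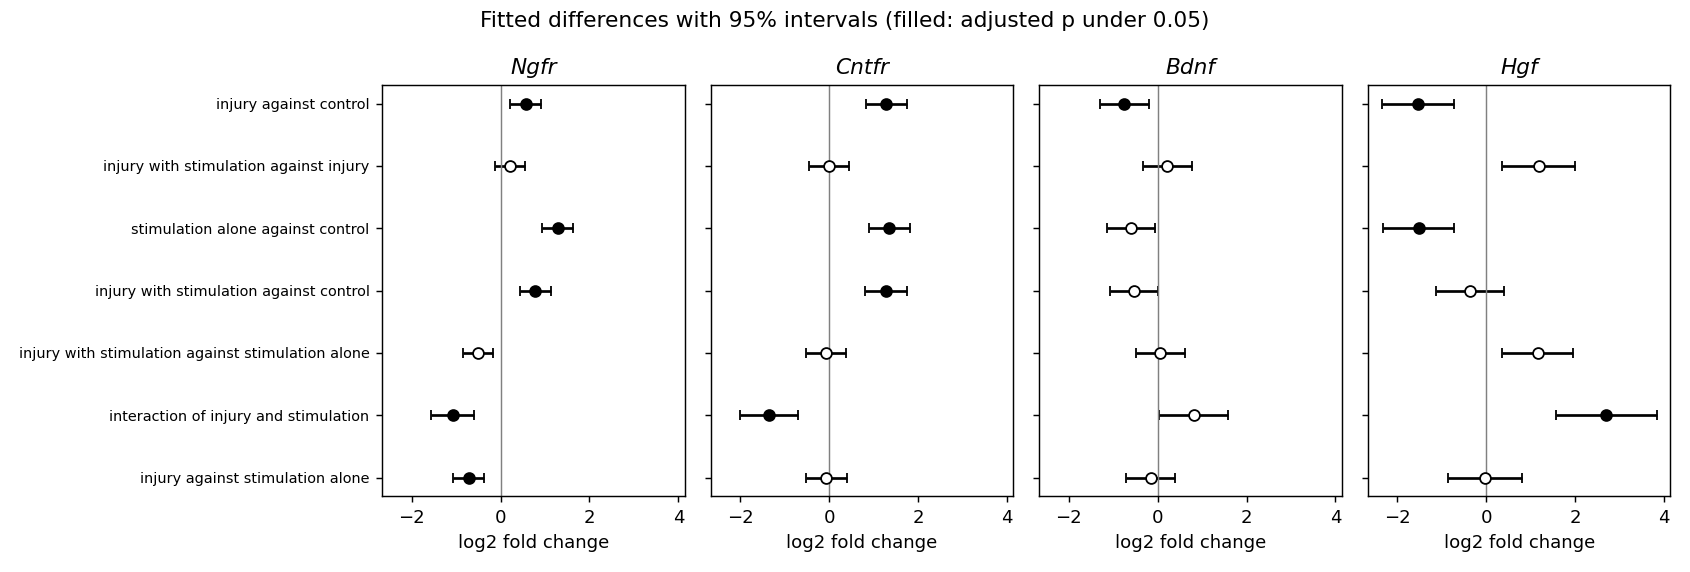
Fitted log2 fold changes of each gene (horizontal axes) in the 7 comparisons (vertical axis), with 95% intervals from the edgeR fit. Filled points have an adjusted p under 0.05, and both receptors fall right of 0 in all 3 comparisons with control while Hgf falls left of it after injury and after stimulation alone.

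Ngfr rose in all 3 treated groups and stood highest with stimulation alone. Control libraries had 307, 354 and 258 CPM, and injury libraries 442, 436 and 488 CPM. Injury with stimulation gave 569, 415 and 595 CPM, and stimulation alone 824, 702 and 719 CPM. All 9 treated libraries lay above all 3 controls, and the 3 libraries of stimulation alone lay above the other 9, while the injury libraries fell inside the range of injury with stimulation. The means were 307 ± 47.9, 455 ± 28.8, 527 ± 97.4 and 748 ± 65.8 CPM in that order of groups (SD, n = 3 each).

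Against control, Ngfr rose by a log2 fold change of 1.29 ± 0.17 (SE) with stimulation alone (edgeR adjusted p = 9.8e-05), or 2.44-fold. The rise was 0.78 ± 0.16 after injury with stimulation (adjusted p = 0.0062) and 0.57 ± 0.16 after injury (adjusted p = 0.015). Ngfr was lower after injury than with stimulation alone (−0.72 ± 0.16, adjusted p = 0.0080). Differences between neighbours in the order of treated groups did not pass after adjustment: injury with stimulation stood at 0.21 against injury (95% interval −0.13 to 0.55, adjusted p = 0.68) and at −0.51 against stimulation alone (−0.85 to −0.16, adjusted p = 0.089). The libraries of the second pair did not overlap, and its difference was called by DESeq2 (adjusted p = 0.040) and by edgeR with no filter on low counts (0.015). The interaction was −1.08 ± 0.23 (adjusted p = 0.0062), since the rise with both treatments was smaller than the sum of the separate rises.

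The call of Ngfr with stimulation alone held when any 1 library was left out, with an adjusted p of at most 0.0015, and so did the interaction (at most 0.044). The call after injury was lost without control replicate 1 (adjusted p = 0.052), control replicate 3 (0.084), injury replicate 3 (0.060) or stimulation alone replicate 2 (0.052). The call after injury with stimulation was lost without replicate 3 of that group (adjusted p = 0.063). Glial and neuronal markers moved too: the Schwann cell sums were highest after injury, and the sensory neuron sums were higher in all treated groups. The Schwann cell list holds myelin genes and does not separate these cells from oligodendrocytes, whose 4 markers were all called higher after injury. Of the 6 Schwann cell markers, 4 were called higher and 0 lower after injury than with stimulation alone (14.4% of intervals in either direction). Means after injury and with stimulation alone were 324 and 144 CPM for Mag, 1817 and 931 for Cnp, 1506 and 733 for Mal, and 325 and 152 for Fa2h. Prx, of the same list, had 3413 ± 1216 CPM after injury and 3234 ± 253 with stimulation alone (SD, n = 3 each), and Drp2 had 0.975 and 1.38. The part of these cells in the Ngfr values was not tested.

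Cntfr rose in all 3 treated groups, to means between 533 and 559 CPM. It stood at 229, 223 and 205 CPM in control libraries and at 509, 564 and 531 CPM after injury. Injury with stimulation gave 704, 341 and 554 CPM, and stimulation alone 584, 678 and 416 CPM. All 9 treated libraries lay above all 3 controls, and the treated groups overlapped one another. The spread was widest in injury with stimulation, where the mean was 533 ± 183 CPM, against 535 ± 27.8 after injury, 559 ± 133 with stimulation alone and 219 ± 12.7 in controls (SD, n = 3 each).

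In log2 fold change, Cntfr rose against control by 1.29 ± 0.22 after injury (edgeR adjusted p = 0.0012), by 1.35 ± 0.22 with stimulation alone (adjusted p = 0.00038) and by 1.28 ± 0.22 after injury with stimulation (adjusted p = 0.0046). These rises are 2.45-fold, 2.56-fold and 2.44-fold. Differences among the treated groups were small beside their error: −0.01 (95% interval −0.46 to 0.45) for injury with stimulation against injury, −0.07 (−0.53 to 0.39) against stimulation alone, and −0.06 (−0.52 to 0.39) for injury against stimulation alone. The adjusted p-values were 0.997, 0.90 and 0.87. The interaction was −1.36 ± 0.31 (adjusted p = 0.0079), as the separate rises did not add in mice that had both treatments.

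The Cntfr calls after injury and with stimulation alone held in 12 of 12 fits without 1 library, with adjusted p-values of at most 0.011 and 0.0050. The call after injury with stimulation was lost without replicate 3 of that group (adjusted p = 0.052), and the interaction without stimulation alone replicate 2 (0.054). The sums of the sensory neuron markers (6917 to 12322 CPM) and of the Schwann cell markers (3414 to 6524 CPM) were also most spread in injury with stimulation. Single sensory neuron markers differed there. In replicates 1, 2 and 3 of that group Thy1 had 2610, 1161 and 2202 CPM, P2rx3 68.6, 86.5 and 100, and Trpv1 14.7, 19.9 and 20.6. Whether the Cntfr spread follows from either cell type was not tested.

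Bdnf was lower after injury than in controls and was scarce in every group. Its control libraries had 11.5, 15.7 and 12.8 CPM, and its injury libraries 6.77, 7.44 and 9.58 CPM. Injury with stimulation gave 8.75, 7.72 and 11.1 CPM, and stimulation alone 11.7, 7.28 and 7.48 CPM. The controls lay above all libraries except stimulation alone replicate 1, which passed 1 control, and the 3 treated groups overlapped one another. The means were 13.3 ± 2.14, 7.93 ± 1.47, 9.19 ± 1.74 and 8.82 ± 2.50 CPM in that order of groups (SD, n = 3 each). Between 61 and 138 reads per library lay behind these values.

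After injury, Bdnf fell by 0.75 ± 0.26 in log2 fold change (edgeR adjusted p = 0.037). The differences from control were −0.60 ± 0.26 with stimulation alone (adjusted p = 0.090) and −0.54 ± 0.26 after injury with stimulation (adjusted p = 0.16), both on the same side of 0 and neither called. Treated groups were not told apart, with 0.22 (95% interval −0.34 to 0.77) for injury with stimulation against injury, 0.06 (−0.49 to 0.61) against stimulation alone, and −0.15 (−0.71 to 0.40) for injury against stimulation alone. The interaction of 0.82 ± 0.37 was not called (adjusted p = 0.13).

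The Bdnf call after injury was lost without control replicate 1, 2 or 3 (adjusted p = 0.054, 0.14 and 0.075), without injury replicate 1 or 2 (0.13 and 0.12) and with no filter on low counts (0.062). Without stimulation alone replicate 1, the library that overlapped the controls, stimulation alone was also called, at −0.91 ± 0.28 (adjusted p = 0.031). The 618 bases counted lie in 3 noncoding stretches between 109724810 and 109727007 on chromosome 2, at the 3′ end of Bdnf, so the values do not separate its alternative first exons.

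Hgf separated the groups into a higher and a lower pair. The control libraries had 8.76, 7.62 and 11.4 CPM, and the libraries of injury with stimulation 6.97, 7.61 and 6.97 CPM. Injury alone gave 3.22, 1.81 and 4.58 CPM, and stimulation alone 2.09, 2.21 and 5.17 CPM. All 6 libraries with a single treatment lay below the 6 libraries with none or both, the lowest control stood just above the highest library with both, and injury alone and stimulation alone overlapped. The means were 9.25 ± 1.92 in controls, 3.20 ± 1.39 in injured mice, 3.16 ± 1.75 with stimulation alone and 7.18 ± 0.369 with both treatments (SD, n = 3 each). These rest on 17 to 97 reads per library.

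Hgf fell by 1.54 ± 0.38 in log2 fold change after injury (edgeR adjusted p = 0.0069) and by 1.52 ± 0.38 with stimulation alone (adjusted p = 0.0060), to 0.343 and 0.349 of the control level. With both treatments the difference from control was −0.36 ± 0.36 (95% interval −1.13 to 0.40, adjusted p = 0.53). The interaction was 2.70 ± 0.54 (adjusted p = 0.0045). Adding stimulation to injury gave 1.18 ± 0.39 (0.37 to 1.99), and adding injury to stimulation 1.16 ± 0.38 (0.36 to 1.96), and neither passed after adjustment (0.18 and 0.093). Injury alone and stimulation alone were not told apart (−0.03, −0.85 to 0.80, adjusted p = 0.97).

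The calls of Hgf after injury, with stimulation alone and for the interaction held in 12 of 12 fits without 1 library (adjusted p at most 0.044, 0.038 and 0.019). Without stimulation alone replicate 3, whose 5.17 CPM was the highest of that group, the fall with stimulation alone was −2.12. Reads from the bases around the exons are not separated from Hgf reads at this level, and their part in the values was not tested. Fibroblasts are known to make Hgf, and their markers moved in different ways. Dcn, a matrix proteoglycan of fibroblasts, had 2952 ± 524 CPM in controls, 3224 ± 307 after injury, 1840 ± 112 with both treatments and 867 ± 63.0 with stimulation alone (SD, n = 3 each). Of the 9 fibroblast and meningeal markers, 6 were called higher and 0 lower after injury. Means of the meningeal genes Ptgds, Slc6a13, Slc6a20a and Foxc1 rose there, as did those of Col1a2 and Fn1. The mean of Postn went from 20.4 to 11.9 CPM and that of Pdgfra from 6.22 to 5.28. With stimulation alone 0 were called higher and 3 lower, Dcn and Postn among them, and with both treatments 0 and 1. Their part in the Hgf values was not tested.

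Per kilobase of counted exon, Ngfr was the most abundant of the 4 in every group. In controls the levels per kilobase were 456 CPM for Ngfr, 78.6 for Cntfr, 21.6 for Bdnf and 18.6 for Hgf. The order was the same in each treated group, where Ngfr reached 1113 CPM per kilobase with stimulation alone and Hgf was lowest at 6.35. Hgf and Bdnf lay close together in controls and where both treatments were given (14.5 and 14.9). These levels assume that all reads of an interval come from the gene's exons.

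Across the 12 libraries the log2 levels of Ngfr and Cntfr had a Pearson r of 0.804, and those of Bdnf and Hgf 0.507. The r between a receptor and a ligand was −0.605 for Ngfr and Hgf, −0.695 for Cntfr and Hgf, −0.385 for Ngfr and Bdnf and −0.602 for Cntfr and Bdnf. These describe libraries that share depth and scaling, and the group means enter them. Among 3078 genes with at least 5 CPM, the levels most like those of Ngfr were of Hk1 (r = 0.988), Avil (0.978) and Eef1a2 (0.978), and most like those of Cntfr of Nyap1 (0.989), Cygb (0.988) and Cltb (0.988). For Hgf they were Rps6ka3 (0.931), Farsb (0.924) and Cul2 (0.918), and for Bdnf, less closely, Rundc3b (0.798), Fez1 (0.784) and Slc16a7 (0.759). Avil is on the list of sensory neuron markers. Its means were 769, 966, 1167 and 1399 CPM for control, injury, both treatments and stimulation alone. Uchl1, of the same list, took another order, with 1961, 3699, 4100 and 3300 CPM. The part of neurons in the Ngfr values was not tested.

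The 4 genes differ in base composition, and fold changes in these libraries ran with it. The longest transcripts of Ngfr and Cntfr have 58.6% and 59.9% G and C, above 95.4% and 96.9% of named genes, and those of Bdnf and Hgf have 40.9% and 39.9%, above 16.8% and 12.6% (median 47.2%). The coding stretches counted for Hgf have 44.3%, 52.1% and 49.6%, and that of Ngfr 63.4%. The trend and its removal below use the longest transcript, whose composition the counted bases of Hgf do not share. Over 4769 named genes, the log2 fold change and G and C content had a Spearman correlation of 0.446 for injury, 0.635 for stimulation alone and 0.471 for both, each against control, and −0.583 for the interaction. For injury with stimulation against injury it was −0.10. These correlations are across genes, which are not independent replicates, and are given as a description.

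With the trend in base composition and length removed over named genes, differences of all 4 genes from control became smaller. With stimulation alone, Ngfr was still higher by 0.67 ± 0.15 (edgeR adjusted p = 0.0098) and Cntfr by 0.71 ± 0.15 (0.0080). Cntfr also kept its calls after injury (0.53 ± 0.15, adjusted p = 0.024) and after injury with stimulation (0.69 ± 0.15, 0.019). Ngfr lost the call after injury (0.05 ± 0.15, adjusted p = 0.83) and after injury with stimulation (0.41 ± 0.15, 0.091), and both receptors lost the interaction (−0.31, 0.44 and −0.54, 0.17). The difference in Ngfr between injury and stimulation alone held (−0.62 ± 0.15, adjusted p = 0.012).

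Among the ligands, Hgf kept its fall after injury (−1.22 ± 0.35, adjusted p = 0.025) and its interaction (2.07 ± 0.50, 0.028) with the trend removed, and lost the call with stimulation alone (−0.82 ± 0.35, 0.13). Bdnf lost the call after injury (−0.33 ± 0.27, 0.41), and its difference with stimulation alone came to 0.04 ± 0.27. The plot of both fits shows each pair of values.

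**Figure D3:**
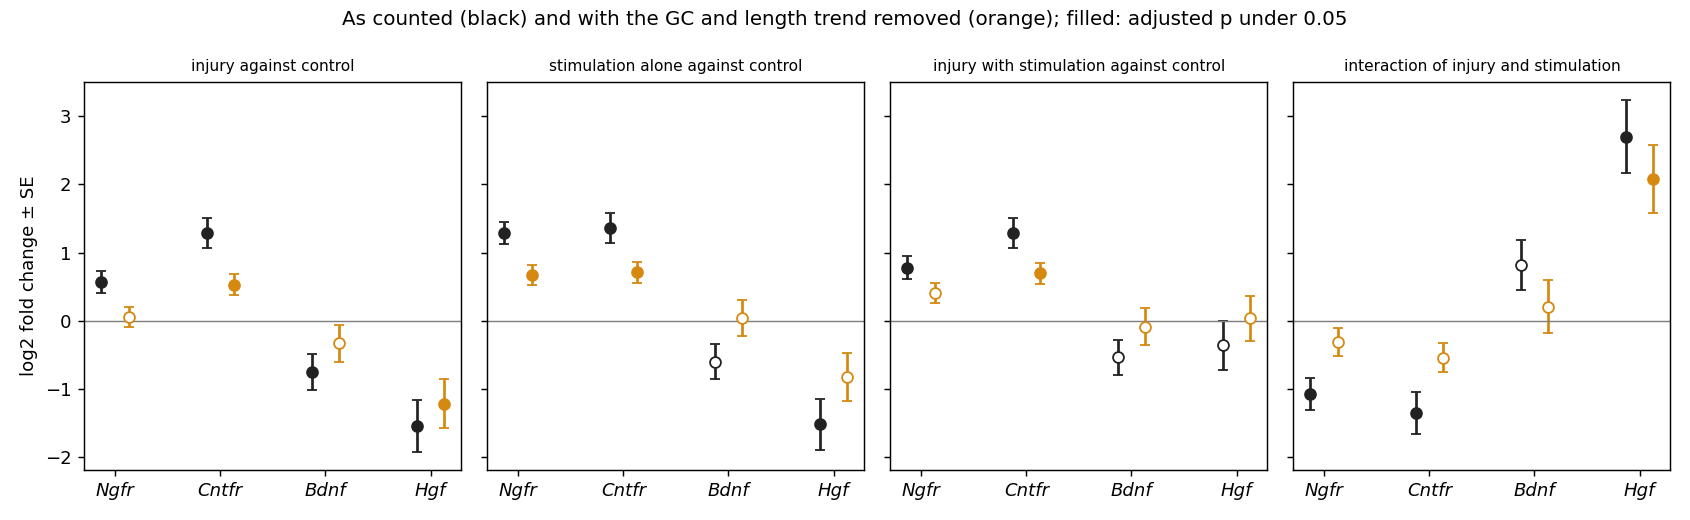
Log2 fold change ± SE (vertical axis) of the 4 genes in 3 comparisons with control and in the interaction, as counted (black) and with the trend in G and C content and length removed (orange). Filled points have an adjusted p under 0.05. The Cntfr rises and the Hgf fall after injury stay filled, while Ngfr after injury moves from 0.57 to 0.05.

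The surrounding pathways were read from 8 lists of 128 genes in all. Leaving out the 4, 40 other genes could be tested. Of these, 8 were higher and 1 lower after injury against control, where 31.0% of all intervals were called (median log2 fold change 0.05, against 0.03 over all intervals). With stimulation alone 9 were higher and 3 lower (29.8% of intervals, median 0.15 against 0.03), and after injury with stimulation 4 were higher and 1 lower (17.2% of intervals, −0.07 against −0.02). The interaction called 6, all lower (19.2% of intervals in either direction, median −0.20 against −0.06). The shares of the 40 called were near those backgrounds or below them. Injury with stimulation against injury called 0 by edgeR (6 at an unadjusted p under 0.05) and 2 by DESeq2. The lists describe genes chosen with earlier results known and support no direction by themselves.

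Of the partners of Ngfr and Bdnf, 3 could be tested: Ntrk2, the TrkB receptor, and Sort1 and Sorcs2, sorting receptors that bind proneurotrophins beside p75. None was called by edgeR in any of the 7 comparisons. Unadjusted p-values under 0.05 numbered 1 after injury, 1 with stimulation alone, 1 for the interaction and 2 for injury against stimulation alone, and DESeq2 called 2 in the last. Ntrk2 had 11.1 ± 3.38 CPM in controls, 12.6 ± 2.87 in injured mice, 10.7 ± 2.50 in mice with both treatments and 7.26 ± 0.772 in mice with stimulation alone (log2 fold change −0.61 ± 0.27 against control, adjusted p = 0.11). Of the p75 effectors, Maged1, an adaptor that binds the cytoplasmic part of p75, was higher with stimulation alone (0.79 ± 0.16, adjusted p = 0.0017) in all 12 fits without 1 library. Its rises after injury (0.44, adjusted p = 0.047) and after injury with stimulation (0.52, 0.036) were lost in 9 and 7 of those fits (adjusted p up to 0.16 and 0.24) and with the base composition trend removed (0.68 and 0.16). Ripk2, a kinase recruited to p75, stood at 0.14 ± 0.15 after injury (adjusted p = 0.49), and its smallest unadjusted p over the 6 planned comparisons was 0.35.

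Of the partners of Cntfr, 5 were tested. Il6st, the shared gp130 chain, showed −0.55 ± 0.30 after injury (edgeR adjusted p = 0.18), 0.20 ± 0.30 with stimulation alone (0.66) and −0.55 ± 0.30 with both (0.22). Its libraries of stimulation alone ran from 103 to 234 CPM, a range that held 2 of the 3 controls. Clcf1, a ligand of the receptor, was higher after injury than after stimulation alone (0.93 ± 0.24, adjusted p = 0.017), a call lost in 5 of 12 fits without 1 library (adjusted p up to 0.076). Osmr, Il31ra and Il6ra, receptor chains for related cytokines, had log2 fold changes after injury of −1.28 ± 0.63, −1.62 ± 0.67 and 0.17 ± 0.40. Over the 5 partners, edgeR called 0 against control in any treated group, where 31.0% (injury), 29.8% (stimulation alone) and 17.2% (both) of all intervals were called. At an unadjusted p under 0.05 there were 2 after injury, 0 with stimulation alone and 1 with both, and DESeq2 called 1 after injury. Of the GDNF family, Gfra3, the artemin receptor subunit, was higher with stimulation alone (0.77 ± 0.21, adjusted p = 0.012). That call was lost without control replicate 2 (0.060) or 3 (0.051) and with the base composition trend removed (0.29, 0.38). Gfra2, the neurturin receptor subunit, was lower after injury than with stimulation alone (−0.76 ± 0.21, adjusted p = 0.025), a call lost in 4 of 12 such fits (up to 0.088).

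For Hgf, the receptor Met and the inhibitor Spint2 were tested. Met had 18.5, 18.8 and 13.9 CPM in the control libraries and 11.7, 12.4 and 11.2 CPM in the injury libraries. The levels were 6.34, 10.6 and 7.68 CPM with both treatments and 10.9, 6.73 and 10.1 CPM with stimulation alone. All 9 treated libraries lay below the controls. Met fell by 1.05 ± 0.25 after injury with stimulation (edgeR adjusted p = 0.0095) and by 0.88 ± 0.25 with stimulation alone (0.012), while its −0.54 ± 0.24 after injury was not called (0.11). Met was low in injury with stimulation, the treated group in which Hgf was not called against control. The first call was lost without replicate 3 of injury with stimulation (0.057) and the second without control replicate 1 (0.056) or 2 (0.051), and both with the base composition trend removed (0.084 and 0.088). Spint2, an inhibitor of the proteases that activate Hgf, was higher after injury (1.46 ± 0.43, adjusted p = 0.016), a call lost without control replicate 1 (0.059), control replicate 3 (0.076) or injury replicate 2 (0.065).

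Of 16 genes of the shared signalling chain tested, Map2k2, the kinase MEK2, was called in all 3 comparisons with control, as the receptors were. It stood at 99.9, 104 and 106 CPM in controls and at 146 to 290 CPM in the 9 treated libraries. Its rises were 1.18 ± 0.20 after injury (edgeR adjusted p = 0.0012), 1.05 ± 0.20 with stimulation alone (0.0011) and 1.07 ± 0.20 with both (0.0047). The last was lost without replicate 3 of that group (0.052), and the rise with stimulation alone with the base composition trend removed (0.38, 0.13). Sh2b1, an adaptor of Trk receptors, rose by 0.70, 0.82 and 0.77 ± 0.15 in the same order (0.0031, 0.00079 and 0.0049), the last also lost without that library (0.053) and all lost with the base composition trend removed (0.49, 0.58 and 0.10). Stat3, which transmits the signal of Cntfr, was higher with stimulation alone (0.87 ± 0.24, 0.011) and lay at −0.23 ± 0.24 after injury. That call was lost without control replicate 3 or stimulation alone replicate 3 (0.067 each) and with the base composition trend removed (0.54, 0.074). Its level after injury was below that with stimulation alone (−1.10 ± 0.24, 0.0059) in all 12 fits without 1 library. Shc2, another Trk adaptor, was called in all 3 comparisons with control (0.47, 0.46 and 0.63 ± 0.16), and lost those calls in 9, 6 and 3 of the 12 fits, and the calls of the single treatments with the trend removed (0.16 and 0.40).

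Of 3 other trophic factor genes tested, Gpr37l1, a glial receptor, was higher after injury (1.23 ± 0.24, edgeR adjusted p = 0.0023) in all 12 fits without 1 library, and its call with stimulation alone (0.67 ± 0.24, 0.041) was lost in 9 and with the base composition trend removed (0.15, 0.67). Erbb3, the neuregulin receptor of Schwann cells, was lower after injury than with stimulation alone (−1.52 ± 0.43, 0.026), a call lost in 4 fits (up to 0.16). Cdnf, a secreted protein of the endoplasmic reticulum, stood at 0.28 ± 0.18 after injury with stimulation (0.32). Of 7 tested genes for processing of proneurotrophins and Hgf, Serpine2, a protease inhibitor, was higher after injury (0.76 ± 0.17, 0.0044) in all 12 fits. Pcsk2, a proprotein convertase, was lower after injury than with stimulation alone (−0.62 ± 0.14, 0.0078) in all 12 fits, but not with the base composition trend removed (−0.50, 0.066). Psen2, the gamma-secretase subunit presenilin 2, was lower with stimulation alone (−1.69 ± 0.54, 0.026), a call lost in 4 fits (up to 0.088). That call rests on 8 to 39 reads per library in the groups compared. The convertase gene Pcsk6 had an interaction of −1.99 ± 0.52 (0.017), lost without replicate 3 of injury with stimulation (0.053) and with that trend removed (−1.37, 0.13). The plot of these genes against control shows each with its standard error.

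**Figure D4:**
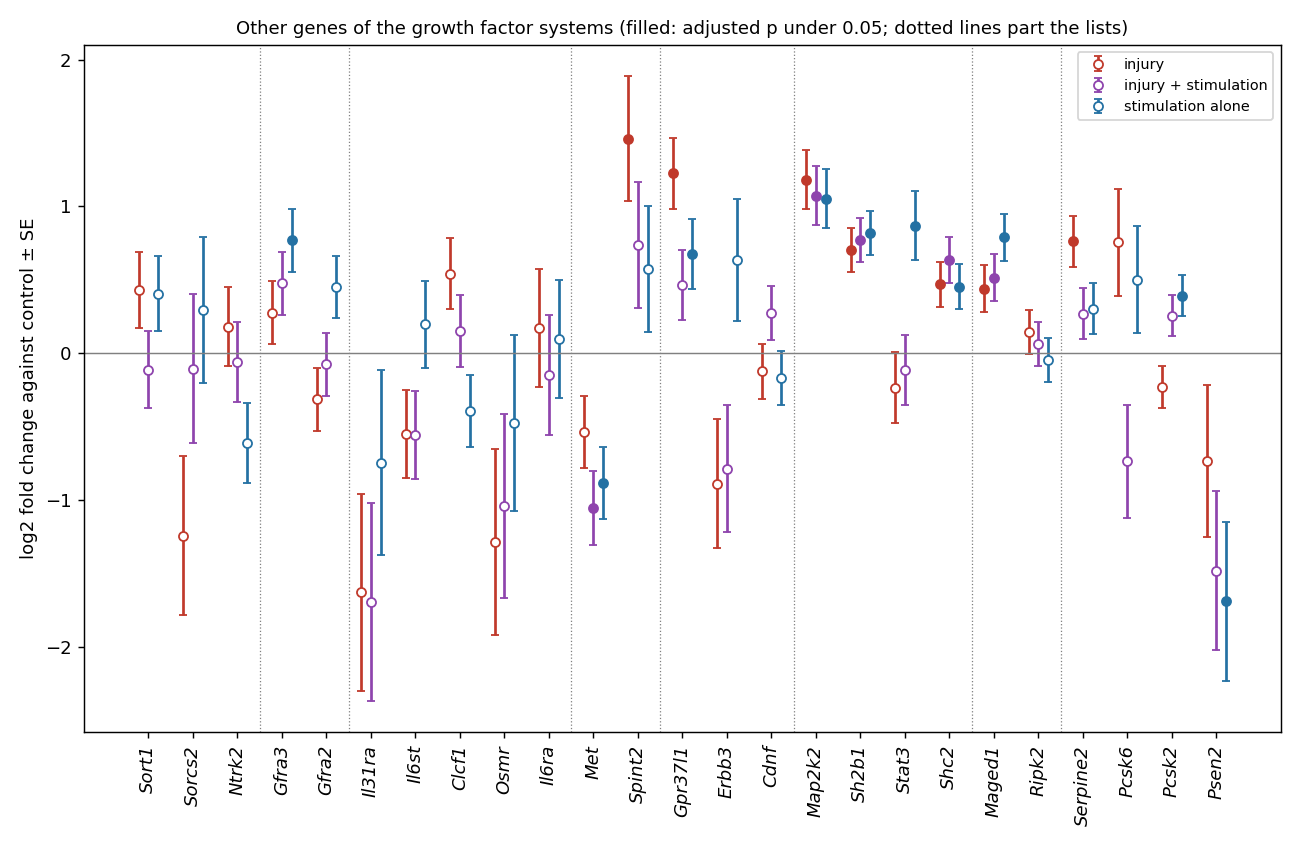
Log2 fold change against control ± SE (vertical axis) of 25 other genes of the growth factor systems (horizontal axis) after injury, injury with stimulation and stimulation alone. Filled points have an adjusted p under 0.05, and dotted lines part the lists. Map2k2 and Sh2b1 are filled and above 0 in all 3 comparisons, and Met is filled and below 0 in both stimulated groups.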

How the data were processed

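The authors deposited whole-number counts per gene interval for 12 libraries (56941 intervals each). Per the file headers, reads were counted unstranded with featureCounts 2.0.6 on Ensembl 110 gene models for GRCm39, with reads allowed in several overlapping genes and output of HISAT named in the path. The version of the aligner is not given in the sources used here, nor is the build it used. The submitters' processing notes also list FastQC, Salmon 1.10.2 and DESeq2. Intervals over no GRCm38 exon held a median of 0.0120 CPM per kilobase. Genes were therefore named by position: an interval over exons of only 1 GENCODE M21 gene (GRCm38), by at least 100 bases, took that gene's name, and where several qualified the one with most exon bases did.

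Tests used edgeR 4.0.16 (quasi-likelihood, robust, TMM, filterByExpr) in 1 fit of all libraries, with group as the only term and Benjamini-Hochberg adjustment over 13053 intervals, called under 0.05. Levels are CPM after TMM scaling, and correlations use log2 CPM with a prior count of 2. Alternatives were RLE scaling, DESeq2 1.42.0, other filters, a replicate block, removal of each library's trend in transcript G and C content and length (natural splines as offsets, named genes only), the compared groups alone, and each library left out in turn. Injury against stimulation alone was added after the data were seen. Groups came from the sample labels. Same-numbered replicates were taken as unpaired, since of 18 pairs only 1 had deviations correlated above 0.1 (median r −0.0034).

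Named genes are the 4 members, the tested genes of the 4 growth factor lists, up to 4 genes of each other list with the smallest p over 6 comparisons, and the 3 genes most correlated with each member. The members and lists were chosen with earlier results of these data known. Depth, 7952798 to 10751547 reads, limits Hgf and Bdnf most. R 4.3.3, Python 3.11.15, pandas 2.3.3, matplotlib 3.10.9 and bedtools 2.31.1 were used.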

Additional observations from a re-analysis of the deposited data

Results flagged for a closer look

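For 3 of the 4 genes the effect of stimulation differed between injured and uninjured mice, tested as the interaction in the edgeR fit. The same test called 19.2% of 13053 intervals, 6.86% higher and 12.3% lower. For Ngfr the difference in log2 effect was −1.08 (adjusted p = 0.0062), with 1.29 in uninjured and 0.21 in injured mice. For Cntfr it was −1.36 (adjusted p = 0.0079), with 1.35 and −0.01. For Hgf it was 2.70 (adjusted p = 0.0045), with −1.52 and 1.18, so the fitted effects had opposite signs. With the trend in base composition and length removed, the values were −0.31, −0.54 and 2.07, and only that of Hgf was still called (adjusted p = 0.028).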

How the results depend on the processing

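Injury called 2 to 4 of Ngfr, Cntfr, Bdnf and Hgf when 1 library was left out (2465 to 4847 intervals, fewest without injury replicate 2), and 2 with the trend in base composition and length removed, with or without the replicate block. Removing that trend limits the fit to named genes, so fewer intervals are tested. Of the named genes with a G and C value, 4769 were tested in the main fit. With the trend removed 878 were called, and 731 with the block, against 4046 of 13053 intervals in the main fit. Stimulation alone called 3 to 4 when 1 library was left out (2640 to 4593 intervals, fewest without its replicate 2). With the trend removed, with or without the block, it still called Ngfr and Cntfr but neither Hgf nor Bdnf (497 intervals, 342 with the block too). Injury with stimulation against control called 0 to 2 (11 to 4349 intervals, fewest without its replicate 3, most without its replicate 2). It called 1 of the genes and 449 intervals without the trend, 0 and 12 with the block too, and 1125 intervals when only these groups were fitted. Injury with stimulation against injury called 0 genes in each such fit and 5 to 338 intervals (5 without replicate 3 of injury with stimulation), 368 by DESeq2, 364 with no filter, 105 without the trend, 75 with the block too and 127 with only these groups. Injury with stimulation against stimulation alone called 0 genes in each such fit and 74 to 1804 intervals (fewest without stimulation alone replicate 3, most without injury with stimulation replicate 2). DESeq2 called 2 of the genes there, Ngfr (adjusted p = 0.040) and Hgf (0.027), and 1166 intervals, and no filter called 1, Ngfr (0.015). In that comparison 294 intervals were called with the replicate block, 44 without the trend, 18 with both and 0 with only these groups. The interaction called 2 to 3 genes and 1126 to 3407 intervals, fewest without stimulation alone replicate 2. Without the trend it called 1 gene and 165 intervals, and 1 and 119 with the block. Injury against stimulation alone called 1 gene in each such fit and 903 to 2604 intervals, fewest without stimulation alone replicate 3, with 620 and 506 without the trend and with the block too. Of the pathway genes, DESeq2 called 13 there against 7 by edgeR, and 6 against 2 for injury with stimulation against stimulation alone. Other scaling moved the median of all intervals by at most 0.088, and the share of interaction calls that were higher from 35.7% to 47.9% (RLE) or 45.5% (DESeq2). For injury with stimulation against injury that share went from 2.49% to 18.8% by DESeq2.

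Same-numbered replicates had correlations of −0.26 to 0.20, and with the replicate block the Bdnf call after injury was lost (−0.76, adjusted p = 0.054) while the other calls of the 4 genes held. With the block and the trend removal together, Cntfr also lost the call after injury with stimulation (0.69, 0.051). Signs that turned were of differences that had not been called, except that of Sh2b1 for the interaction, which came to 0.076 without the trend and 0.073 with the block too. For Cntfr, injury with stimulation against injury came to 0.054 with RLE, 0.054 with DESeq2, 0.0069 with no filter, 0.17 without the trend, 0.16 with the block too, 0.032 with only these groups and −0.26 to 0.30 without 1 library. Against stimulation alone, Cntfr ran from −0.33 to 0.19 without 1 library after injury with stimulation and from −0.31 to 0.060 after injury. Without the trend, and with the block too, Bdnf came to 0.037 and 0.026 with stimulation alone and −0.12 and −0.12 for injury with stimulation against stimulation alone, where it ran from −0.084 to 0.35 without 1 library. For injury against stimulation alone Bdnf ran from −0.33 to 0.072. Hgf came to 0.034 and 0.069 for injury with stimulation against control without the trend and with the block too. For injury against stimulation alone it came to 0.023 with the block and ran from −0.37 to 0.48 without 1 library. The causes of these changes were not tested. A fit without 1 library leaves 2 in its group, whose spread is shared with the other groups.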
